A study of Mus musculus with 12 samples.

Results

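The elastic fibre genes are 10 named mouse genes: the elastin gene Eln, the fibrillin genes Fbn1 and Fbn2, the fibulin genes Fbln1, Fbln2, Fbln5 and Fbln7, the accessory genes Emilin1 and Mfap4, and the crosslinking enzyme gene Lox. They were taken by name out of 47643 genes listed in the deposited count files, and all 10 were found. Of these, 8 passed the filter on low counts and were tested among 13229 genes. Fbln1 and Mfap4 did not pass it.

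The RNA came from C3H/10T1/2, an established mouse embryonic line of fibroblast shape that is widely used as a model of mesenchymal cells that can take up bone, cartilage or fat programmes. For all 12 libraries the cells were transiently transfected with TurboFect, a non-viral polymer, at 0.5 µg of plasmid per cm2, and RNA was taken 3 days later. The reference group received the plasmid BMP2ADV, named for the bone morphogenetic protein BMP2, and the other groups received the BMP2/miRNA hybrid plasmids BMP2ADV20a, BMP2ADV148b or BMP2ADV590. Each group had 3 libraries, and no library without plasmid was analysed here. Nothing in the labels ties the libraries to separate cultures. The p-values therefore measure only the spread between these libraries, which may be technical.

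Elastic fibres give skin, vessels, lung and ligaments their recoil. Tropoelastin, the product of Eln, is deposited on a scaffold of microfibrils built from fibrillins, with fibulins guiding the deposition and lysyl oxidase joining the chains into an insoluble network. Microfibrils also hold latent growth factors of the TGF-beta family, and fibrillins bind BMPs, so that the same scaffold bears on how these signals reach mesenchymal cells.

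The hybrids are named after miRNAs, which pair through their seed (bases 2 to 8) with sites in 3′ UTRs. Sites were searched for the miRNAs of the 20a and 148b hybrids, and not for that of BMP2ADV590. The mouse sequences usually loaded into the silencing complex, as RefSeq gives them on GRCm38.p6, are shown because the sites were searched in the elastic fibre genes, with the seed in capitals. The bases carried by the plasmids were not analysed here.
miR-20a-5p: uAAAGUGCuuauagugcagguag
miR-148b-3p: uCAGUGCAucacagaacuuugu
The first lies at chr14:115044183-115044205 and the other at chr15:103285185-103285206, both on the plus strand. The site opposite the miR-20a seed, GCACTTT, was found in the longest annotated 3′ UTR of 0 of the 10 genes and in 11.8% of 21013 annotated 3′ UTRs. The site opposite the miR-148b seed, TGCACTG, was found in Fbn1 and Fbln7 and in 12.7% of the 21013. These 3 sites follow in the sense of the transcript (reference GRCm38, GENCODE M21), with the site in capitals.
Fbn1 (site at base 440 of a UTR of 992): agatttattgaTGCACTGtaataaagaca
Fbn1 (site at base 732): tggcccacttgTGCACTGaggttggggag
Fbln7 (site at base 1252 of a UTR of 1445): ggtcatttcctTGCACTGcataaaactgg
The stretches lie at chr2:125301129-125301157 and chr2:125300837-125300865 on the minus strand and at chr2:128896830-128896858 on the plus strand. In BMP2ADV148b neither gene was called different from BMP2ADV: the log2 fold change was 0.01 for Fbn1 (95% interval −0.15 to 0.17) and 0.62 for Fbln7 (0.08 to 1.15, adjusted p = 0.501). A match is a description of letters only.

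Gene counts ranged from 9236431 to 14727288 per library. Counts of the Mir148b locus were 211, 215 and 204 in the BMP2ADV148b libraries and 0 in each of the other 9, while the Mir20a locus had 0 in all 12. Libraries of BMP2ADV590 lay apart on the first principal component (21.8 to 30.2, against −25.3 to 6.42 for the other 9), which held 18% of the variance. On the next component, with 11.7%, they were spread from −23.4 to 22.6, and the other 9 from −24 to 12.4. Bmp2 itself, at a mean of 1.30 CPM in BMP2ADV, was called higher in BMP2ADV590 (log2 fold change 1.91, adjusted p = 0.0021) and in BMP2ADV148b (2.00, 0.0326), and was not called in BMP2ADV20a (1.35, 0.16), where its libraries also lay above those of BMP2ADV. The BMP2ADV148b call was lost with limma-voom and without any BMP2ADV library or BMP2ADV148b replicate 2 or 3 (up to 0.212). Whether the Bmp2 counts came from the plasmids or from the cells' own gene was not tested. Of the fibroblast markers all 8 were tested, with summed levels of 18400 to 21600 CPM (gene counts scaled to a common library size). Of the smooth muscle markers, 5 of 7 were tested and 2 lay under 1 CPM. All 4 skeletal muscle markers lay under 1 CPM, and the summed levels of the macrophage, endothelial, epithelial and neural lists reached at most 27.3 CPM. These sums are read again beside the results they move with.

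With BMP2ADV590, 6 of the 8 tested elastic fibre genes rose over BMP2ADV (Eln, Fbn2, Fbln5, Fbln7, Emilin1 and Lox) and 0 fell, whereas 4.37% of all genes tested were called higher. The log2 fold changes that passed ran from 0.26 for Lox to 1.61 for Fbln7, and the median of the 8 was 0.37, beside 0.00 for all genes. The 10 genes were chosen with earlier results of these data known, so the comparison with all genes is a description only. Fbn1 and Fbln2 did not pass, at 0.07 and −0.28, although 7 of the 8 reached an unadjusted p of 0.05, as did 21.2% of all genes. With BMP2ADV20a or BMP2ADV148b, 0 of the 8 were called in either direction. In bulk RNA, a change in the number of cells of a type and a change in RNA per cell cannot be told apart. The sum over the 10 genes was 4555, 4111 and 4396 CPM in the BMP2ADV libraries, 4823, 4665 and 4554 in BMP2ADV20a, 4165, 4723 and 4736 in BMP2ADV148b, and 5346, 5649 and 5310 in BMP2ADV590. The BMP2ADV590 sums lay above those of all other libraries, and Lox gave the largest part of each sum.

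**Figure D1:**
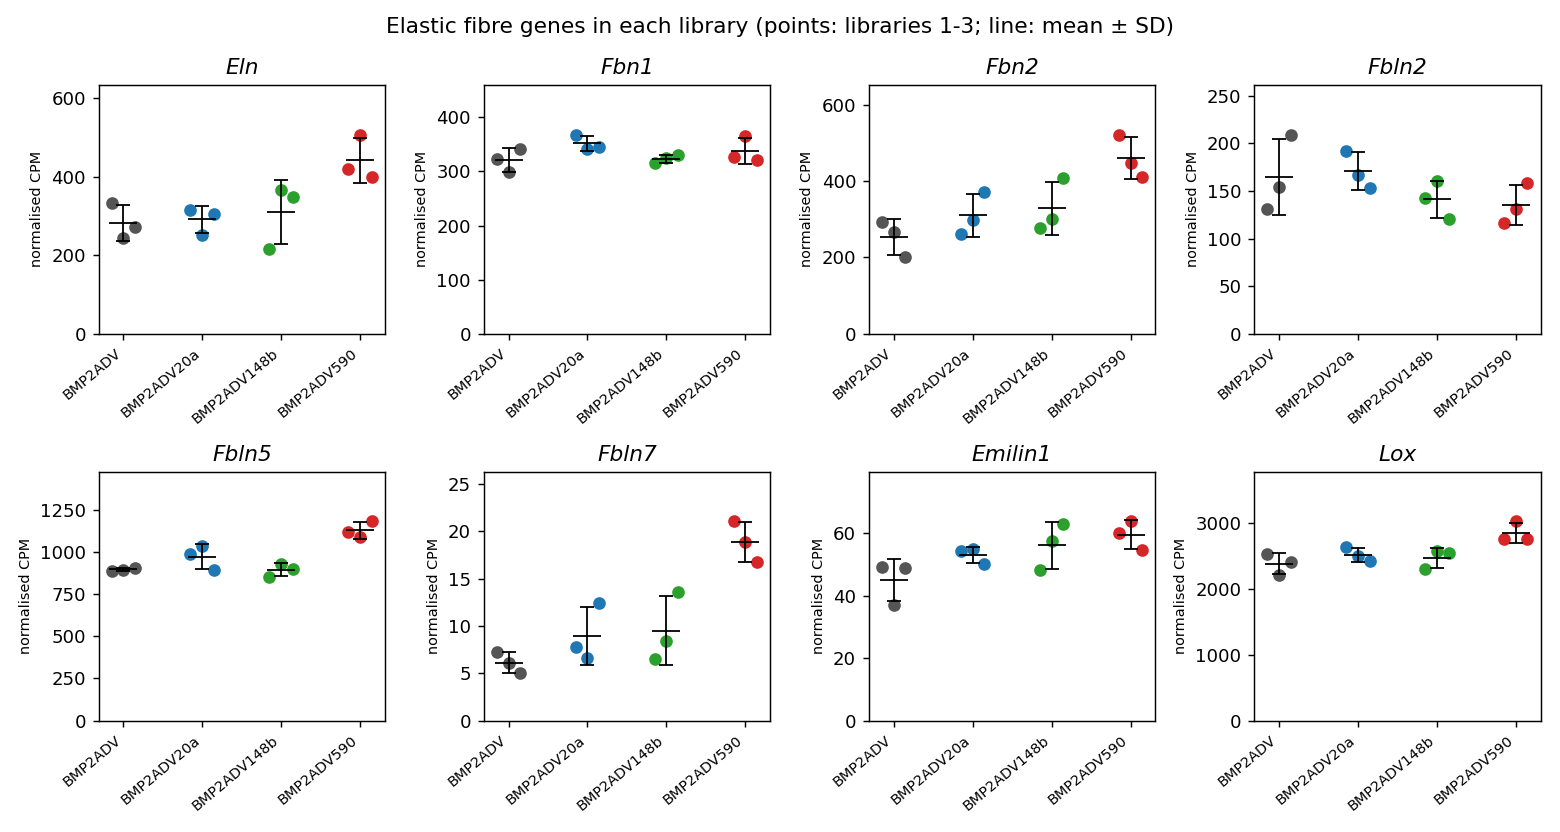
Normalised level (CPM, linear axis from 0 in each panel) of the 8 elastic fibre genes that passed the filter, by group, with 1 point per library and a bar for the group mean ± SD (n = 3). The BMP2ADV590 points of Fbln7 sit between 16.7 and 21.0 CPM, above the other 9 libraries, while those of Fbn1 lie among the others.

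The core of the fibre is encoded by Eln (chr5:134702593-134747323, minus strand), whose product tropoelastin supplies the recoil. Its level was 332, 243 and 272 CPM in the BMP2ADV libraries, 316, 252 and 306 in BMP2ADV20a, 217, 366 and 349.5 in BMP2ADV148b, and 419, 507 and 399.8 in BMP2ADV590. All 3 BMP2ADV590 libraries lay above the other 9, while the other groups overlapped one another. The mean rose from 283 ± 45.6 CPM to 442 ± 57.1 CPM (SD, n = 3 each), a log2 fold change of 0.64 (SE 0.143, 95% interval 0.35 to 0.94, adjusted p = 0.00536, edgeR quasi-likelihood test with Benjamini-Hochberg adjustment). Without BMP2ADV replicate 2, the lowest library of its group, the adjusted p was 0.0515. Eln varied more within groups than most genes: its coefficient of variation averaged 16.8%, beside a median of 5.83% over the 500 genes nearest in level.

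The scaffold genes parted. Fbn1, for fibrillin-1, the main microfibril protein of the adult, lies at chr2:125300594-125507993 on the minus strand. It read 322, 298 and 342 CPM in BMP2ADV, 368, 342 and 346 in BMP2ADV20a, 316, 324 and 331 in BMP2ADV148b, and 327, 365 and 320.4 in BMP2ADV590. BMP2ADV590 overlapped every other group, while the BMP2ADV20a libraries all lay above those of BMP2ADV148b. The 95% interval of the difference between BMP2ADV590 and BMP2ADV was −0.09 to 0.23 on the log2 scale. Its coefficient of variation averaged 5.12%, close to the 5.9% of genes of like level.

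Fbn2 encodes fibrillin-2, the fibrillin known mainly from embryonic tissue, and lies on chromosome 18. It read 293, 266 and 202 CPM in BMP2ADV, 262, 299 and 372 in BMP2ADV20a, 277, 301 and 407 in BMP2ADV148b, and 521, 448 and 411 in BMP2ADV590. Each BMP2ADV590 library lay above all 9 others, the nearest being BMP2ADV148b replicate 3. The rise over BMP2ADV, from 253 ± 46.7 to 460.4 ± 56.0 CPM (n = 3 each), was 1.82-fold (log2 fold change 0.86, SE 0.139, 95% interval 0.57 to 1.15, adjusted p = 0.000255). The libraries of a group were widely spread, with a mean coefficient of variation of 17.4% beside 5.82% for genes of like level. Across the 4 groups at once, Fbn2 was called (adjusted p = 0.00132) and Fbn1 was not (0.61).

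Among the fibulins, Fbln5 (chr12:101746565-101819055, minus strand) encodes the protein that binds tropoelastin and brings it to microfibrils, and elastic fibres are poorly formed without it. It read 888, 896 and 904 CPM in BMP2ADV, 988, 1038 and 890.5 in BMP2ADV20a, 853, 929.9 and 897 in BMP2ADV148b, and 1117, 1085 and 1181 in BMP2ADV590. The BMP2ADV590 libraries again lay above the other 9. The mean rose from 896 ± 7.70 to 1128 ± 48.5 CPM (n = 3 each), a log2 fold change of 0.33 (SE 0.0717, 95% interval 0.18 to 0.48, adjusted p = 0.00429). Replicates were close here: the coefficient of variation averaged 4.3%, beside 5.67% for genes of like level.

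Fbln7 (chr2:128862981-128897034, plus strand), a fibulin known from developing teeth and cartilage, changed most among the 8. It read 7.25, 6.12 and 5.03 CPM in BMP2ADV, 7.76, 6.58 and 12.4 in BMP2ADV20a, 6.55, 8.38 and 13.6 in BMP2ADV148b, and 21.0, 18.8 and 16.7 in BMP2ADV590. The lowest BMP2ADV590 library stood above the highest of the other 9, and replicate 3 was high within both BMP2ADV20a and BMP2ADV148b. The mean of BMP2ADV590, 18.9 ± 2.16 CPM against 6.13 ± 1.11 CPM (n = 3 each), was 3.05-fold higher (log2 fold change 1.61, SE 0.248, 95% interval 1.10 to 2.12, adjusted p = 0.000158). At this low level the coefficient of variation averaged 25.5%, beside 15.5% for genes of like level.

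Fbln2 (chr6:91212455-91272540, plus strand) encodes a large fibulin found with elastin and fibronectin. It read 131, 154 and 209 CPM in BMP2ADV, 192, 167 and 153 in BMP2ADV20a, 143, 160.1 and 120.4 in BMP2ADV148b, and 117, 131 and 158 in BMP2ADV590. All groups overlapped, and BMP2ADV replicate 3 was the highest of the 12. The log2 difference between BMP2ADV590 and BMP2ADV was −0.28 (adjusted p = 0.233), so the only negative value among the 8 in that comparison did not pass. Without the filter on low counts it did (−0.28, adjusted p = 0.0415). Fbln1 (chr15:85205949-85286535, plus strand), for a secreted fibulin of basement membranes and elastin cores, was scarce everywhere. Its counts were 12, 5 and 1 in BMP2ADV, 7, 6 and 2 in BMP2ADV20a, 7, 3 and 12 in BMP2ADV148b, and 9, 9 and 0 in BMP2ADV590. The groups overlapped, and no difference was detectable at this depth.

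A promoter window each of Fbln5 and Fbln7, the fibulins that rose, is shown as the 250 bases before an annotated RefSeq start (GRCm38.p6), on the gene's strand. Capitals mark matches to any of 6 motifs searched on both strands: the GC-rich box of BMP SMADs (GGCGCC), the SMAD box (CAGACA), the SP1 box (GGGCGG), the TATA box (TATAAA), the AP-1 site (TGACTCA) and the core bound by SOX factors (AACAAT).
Fbln5 chr12:101819120-101819369 (minus): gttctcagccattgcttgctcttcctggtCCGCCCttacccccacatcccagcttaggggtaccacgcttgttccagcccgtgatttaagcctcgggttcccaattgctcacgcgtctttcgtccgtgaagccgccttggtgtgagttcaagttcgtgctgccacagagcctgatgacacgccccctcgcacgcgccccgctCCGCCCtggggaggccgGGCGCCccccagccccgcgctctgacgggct
Fbln7 chr2:128863682-128863931 (plus): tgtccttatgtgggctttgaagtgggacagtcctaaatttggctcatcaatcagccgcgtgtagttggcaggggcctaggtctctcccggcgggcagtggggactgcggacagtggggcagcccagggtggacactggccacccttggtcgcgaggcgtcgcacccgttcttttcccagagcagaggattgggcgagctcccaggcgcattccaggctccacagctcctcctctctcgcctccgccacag
The Fbln5 window held GGGCGG, on the opposite strand, at −221 and −48 from the start and GGCGCC at −31. The Fbln7 window held none of the 6, which says only that these letters are not in it. Over all 32851 promoter windows of this length, the SP1 box was in 32.7%, the SMAD box in 17.1%, the TATA box in 12.4%, the GC-rich box of BMP SMADs in 9.59%, the SOX core in 9.42% and the AP-1 site in 4.46%. The SP1 box and that GC-rich box can share bases, but did not here. The shares of G and C were 65.2% and 63.2%, beside a median of 52.4% over all windows. A second annotated start of Fbln5 had a window (chr12:101818485-101818734) with 49.6% G and C, which held GGCGCC at −238 and CAGACA at −15.

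Emilin1 and Mfap4 encode proteins at the surface of the fibre. Emilin1 (chr5:30913402-30921277, plus strand), for a glycoprotein at the border of elastin and microfibrils that also restrains TGF-beta processing, read 49.2, 37.2 and 48.9 CPM in BMP2ADV. The values were 54.2, 55.1 and 50.1 in BMP2ADV20a, 48.1, 57.5 and 63.0 in BMP2ADV148b, and 60.1, 63.8 and 54.7 in BMP2ADV590. The BMP2ADV590 libraries lay above those of BMP2ADV but overlapped those of both other hybrids. The rise over BMP2ADV, from 45.1 ± 6.85 to 59.5 ± 4.6 CPM (n = 3 each), was 1.32-fold (log2 fold change 0.40, SE 0.118, 95% interval 0.16 to 0.64, adjusted p = 0.0349). This call was lost without BMP2ADV replicate 2, BMP2ADV590 replicate 1 or BMP2ADV590 replicate 2 (adjusted p up to 0.22).

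Mfap4 (chr11:61485431-61488900, plus strand), for a protein that binds elastin and fibrillin in vessel walls and skin, had 0 counts in all 6 libraries of BMP2ADV and BMP2ADV20a. It had 0, 1 and 0 in BMP2ADV148b and 2, 9 and 0 in BMP2ADV590. Over 3 libraries, 0 counts allow up to 0.0886 CPM in BMP2ADV and 0.0783 CPM in BMP2ADV20a, a limit of 3 counts that covers counting error only. The 11 counts of BMP2ADV590 came mostly from replicate 2, and without the filter Mfap4 had an adjusted p of 0.333 against BMP2ADV. An exon of Mfap4 overlaps Mapk7 on the opposite strand, which had 190 to 386 counts, and the labels name no strand setting for the counting. Opposite-strand partners of Eln, Fbn1 and Fbn2 (Gm30003, Gm9913 and Gm26507) had at most 10 counts, beside at least 1927 for each of these 3 genes. Lox also has an opposite-strand partner, AC161119.1, whose counts were not examined here.

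Lox, on chromosome 18, encodes lysyl oxidase, the copper enzyme that oxidises lysines of elastin and collagen so that they crosslink. It read 2532, 2211 and 2413 CPM in BMP2ADV, 2634, 2506 and 2425 in BMP2ADV20a, 2304, 2576 and 2554 in BMP2ADV148b, and 2764, 3028 and 2768 in BMP2ADV590. The BMP2ADV590 libraries lay above the other 9. The mean rose 1.20-fold, from 2385 ± 162 to 2853 ± 151 CPM (n = 3 each), a log2 fold change of 0.26 (SE 0.0725, 95% interval 0.11 to 0.41, adjusted p = 0.0264). The call was lost without BMP2ADV replicate 2, BMP2ADV replicate 3 or BMP2ADV590 replicate 2 (adjusted p up to 0.159). Libraries of BMP2ADV590 and BMP2ADV did not overlap for the 6 genes that rose, and 12.5% of all genes tested were higher in BMP2ADV590 without overlap.

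**Figure D2:**
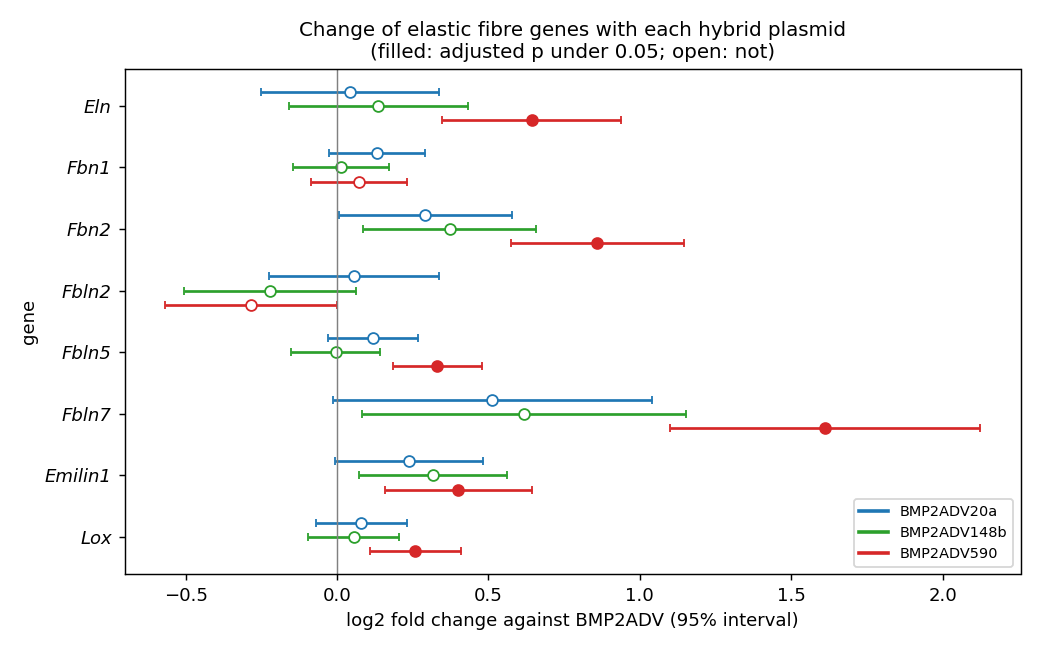
Log2 fold change of each tested elastic fibre gene (rows) in the 3 hybrid groups against BMP2ADV, with 95% intervals of the edgeR fit and filled points for an adjusted p under 0.05. Filled points appear for BMP2ADV590 at Eln, Fbn2, Fbln5, Fbln7, Emilin1 and Lox, and none for BMP2ADV20a or BMP2ADV148b.

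Neither of the other hybrids gave a call among the 8 genes. For BMP2ADV20a against BMP2ADV, edgeR called 0 of 8 (0.476% of all genes in either direction), and DESeq2 and limma-voom also called 0. All 8 log2 fold changes were positive (49.6% of all genes), from 0.04 for Eln to 0.51 for Fbln7, with adjusted p from 0.496 to 0.952. At an unadjusted p under 0.05 there was 1 of the 8, Fbn2 (0.29, 95% interval 0.01 to 0.58), where 9.87% of all genes reached that level. Emilin1 was the gene whose BMP2ADV20a libraries all lay above those of BMP2ADV, at a log2 fold change of 0.24, and 7.76% of all genes did so.

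For BMP2ADV148b against BMP2ADV, edgeR called 0 of 8 (0.249% of all genes in either direction), as did DESeq2 and limma-voom. At an unadjusted p under 0.05 there were 3 of the 8, Fbn2 (0.37, 95% interval 0.09 to 0.66), Fbln7 (0.62) and Emilin1 (0.32, 0.07 to 0.56), where 8.43% of all genes reached that level. Fbln5 was at −0.00 and Fbln2 at −0.22, with adjusted p over the 8 from 0.417 to 0.992. The 3 hybrid groups share the BMP2ADV libraries as their control. Side by side against it, Fbn2 stood at 0.29, 0.37 and 0.86 for BMP2ADV20a, BMP2ADV148b and BMP2ADV590, Fbln7 at 0.51, 0.62 and 1.61, and Emilin1 at 0.24, 0.32 and 0.40.

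Against the other hybrids directly, BMP2ADV590 was higher for a smaller number of the genes. Over BMP2ADV20a, 3 of the 8 were called higher (1.29% of all genes): Eln (0.60, adjusted p = 0.0258), Fbn2 (0.57, 0.0294) and Fbln7 (1.10, 0.0141). Fbln5 (0.21, 0.139) and Lox (0.18, 0.244) had libraries that did not overlap without passing the test, so that 5 of the 8 were higher without overlap, beside 9.8% of all genes. Emilin1 differed by 0.16 (adjusted p = 0.575). These calls rest on few libraries. Without BMP2ADV20a replicate 1 or replicate 2, none of the 3 remained (adjusted p up to 0.218), and without BMP2ADV590 replicate 1 only Eln did. With DESeq2, only Fbln7 was called.

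Over BMP2ADV148b, 4 of the 8 were called higher (2.46% of all genes): Eln (0.51, adjusted p = 0.0417), Fbn2 (0.49, 0.0426), Fbln5 (0.34, 0.00552) and Fbln7 (0.99, 0.0157). With Lox (0.20, 0.12), 5 of the 8 were higher without overlap, beside 10.4% of all genes. Emilin1 differed by 0.08 (adjusted p = 0.795). Without BMP2ADV148b replicate 1, the lowest of its group for Eln, Fbn2, Fbln5 and Fbln7, 0 of the 8 were called. Without BMP2ADV148b replicate 2, BMP2ADV590 replicate 1 or BMP2ADV590 replicate 3, 2 were called, and DESeq2 also called 2. The Eln call was lost too without BMP2ADV replicate 3, BMP2ADV20a replicate 3 or BMP2ADV590 replicate 2, and that of Fbn2 without replicate 2 of BMP2ADV or BMP2ADV20a.

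Between BMP2ADV20a and BMP2ADV148b, edgeR called 0 of 8 (0.559% of all genes in either direction), DESeq2 and limma-voom called 0, and 0 reached an unadjusted p of 0.05 (7.79% of all genes did). Fbn1 was the 1 gene of the 8 higher in BMP2ADV20a without overlap, beside 6.58% of all genes. Eln, Fbn2 and Fbln7 were thus called higher by edgeR in BMP2ADV590 than in each of the other 3 groups, which held for 121 genes, 0.915% of those tested. With DESeq2, or with the replicate numbers as a block, Eln and Fbn2 lost their calls over both other hybrids. In the test of all 4 groups at once, 4 of the 8 were called (Eln 0.0101, Fbn2 0.00132, Fbln5 0.00733 and Fbln7 0.000516 as adjusted p), beside 6.25% of all genes. Lox (0.0999), Emilin1 (0.14), Fbln2 (0.273) and Fbn1 (0.61) were not.

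The order of the group means was the same for 4 of the genes. Eln, Fbn2, Fbln7 and Emilin1 were highest in BMP2ADV590, then BMP2ADV148b, then BMP2ADV20a, and lowest in BMP2ADV, with ratios of the highest to the lowest mean of 1.56, 1.82, 3.08 and 1.32. How many of all genes tested had this order was not counted, and the 4 genes were read in the same 12 libraries. For these 4 genes the neighbours BMP2ADV148b and BMP2ADV20a overlapped and gave no call. BMP2ADV20a and BMP2ADV gave none either, although they did not overlap for Emilin1. BMP2ADV590 and BMP2ADV148b, the top pair, were called different by edgeR for Eln, Fbn2 and Fbln7, and no difference was called for Emilin1. Lox ran BMP2ADV590, BMP2ADV20a, BMP2ADV148b, BMP2ADV (ratio 1.2), and Fbln5 ran BMP2ADV590, BMP2ADV20a, BMP2ADV, BMP2ADV148b (1.26). Fbn1 and Fbln2 were highest in BMP2ADV20a, with ratios of 1.1 and 1.26, and none of their groups differed by the test.

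**Figure D3:**
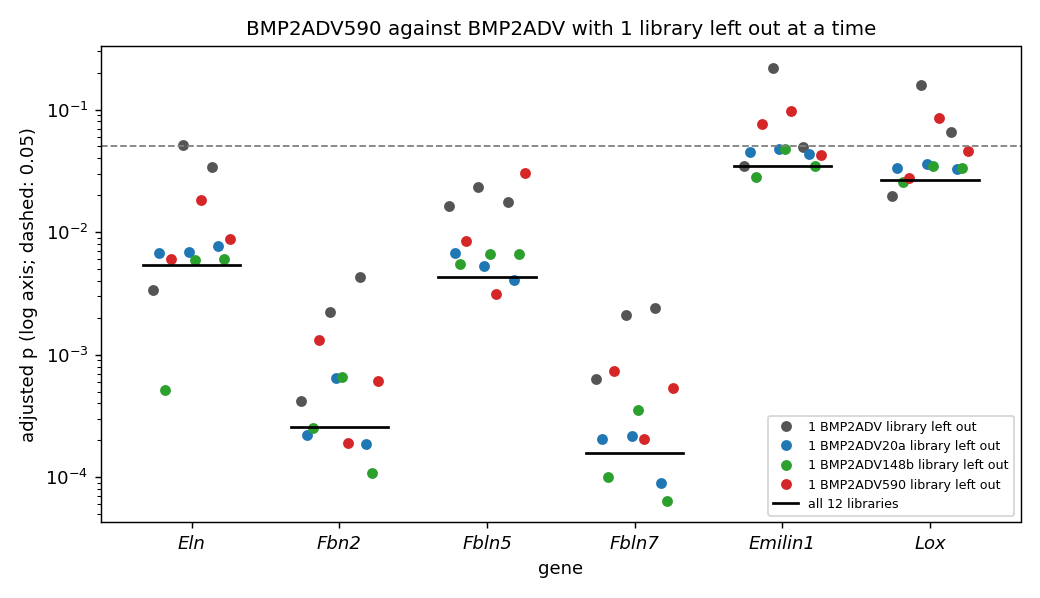
Adjusted p (log axis, dashed line at 0.05) of the 6 elastic fibre genes that rose in BMP2ADV590 against BMP2ADV, with a bar for all 12 libraries and 1 point for each library left out in turn, coloured by the group of that library. Fbn2, Fbln5 and Fbln7 stayed called in all 12 refits, Eln in 11, and Emilin1 and Lox in 9 each.

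The 12-library patterns closest to each gene that rose were found over 8743 genes with a mean of at least 10 CPM, as the root mean square difference of log2 CPM after each gene's own mean was subtracted. For Eln these were Creb3l2 (0.15), Sox9 (0.151) and Anxa6 (0.159), where Eln itself departed from its mean by 0.341. For Fbln7 they were Acan (0.15), Spink5 (0.152) and Col27a1 (0.181), beside 0.661 for Fbln7 itself. For Fbn2 they were Penk (0.0759), Osgin2 (0.0897) and Adam17 (0.122), beside 0.376. The libraries that were high for Eln and Fbln7 were thus also high for the cartilage genes Sox9 and Acan, respectively. Nearest to Fbln5 were Pla2g4a (0.0529), Oma1 and Atp2b1, beside 0.148 for Fbln5 itself. Nearest to Lox were Creb3 (0.0382), Pkm and Prdx2, beside 0.118. Nearest to Emilin1 were Fis1 (0.0805), Ndufaf3 and Ergic3, beside 0.203.

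Cartilage markers moved with the elastic fibre genes in BMP2ADV590. All 4 tested chondrocyte markers of 5 were higher there than in each other group with edgeR, as were 0.915% of all genes tested. DESeq2 called all 4 against BMP2ADV, 3 against BMP2ADV20a and 2 against BMP2ADV148b. The 4 calls against BMP2ADV held with each library left out. Over BMP2ADV20a, the calls of Acan, Sox9 and Col2a1 were lost without BMP2ADV20a replicate 2, those of Acan and Sox9 without replicate 1, and that of Acan without BMP2ADV590 replicate 1 (adjusted p up to 0.167). Over BMP2ADV148b, those of Acan and Col9a1 were lost without BMP2ADV148b replicate 1 or 2 (up to 0.132). Against BMP2ADV the log2 fold changes were 0.77 for Sox9, the transcription factor of chondrocytes, 0.61 for Col2a1 and 0.99 for Col9a1, collagens of cartilage, and 1.39 for the proteoglycan gene Acan. The summed level of the list was 2690 to 3300 CPM in BMP2ADV, 3310 to 3670 in BMP2ADV20a, 2750 to 3760 in BMP2ADV148b and 4580 to 5140 in BMP2ADV590. The part of this in the rise of Eln, Fbn2, Fbln5, Fbln7, Emilin1 and Lox was not tested. Of the 5 tested markers of smooth muscle, another cell type that makes elastin, 0 rose and 1 fell. In BMP2ADV590 against BMP2ADV, only Smtn of these 5 had a positive value, and the median log2 fold change was −0.37. Their sum was 2520 to 3120 CPM in BMP2ADV and 2160 to 2460 in BMP2ADV590 and was mostly Acta2, which was not called (−0.25, adjusted p = 0.106). Smtn was at 0.24 (adjusted p = 0.313), and Lmod1 fell (−0.65, adjusted p = 0.0226), a call lost without BMP2ADV replicate 1 or 2 or BMP2ADV590 replicate 1 or 3 (up to 0.0984). Against BMP2ADV20a, Acta2 was called lower (−0.41, adjusted p = 0.0214), a call lost without BMP2ADV20a replicate 1 or 2 or BMP2ADV590 replicate 1. Of the 8 fibroblast markers, 1 rose and 0 fell, and 5 had positive values. The fibroblast sum was 18900 to 20200 CPM in BMP2ADV and 19400 to 21600 in BMP2ADV590. The marker that rose was Vim, the mesenchymal filament gene (0.29, adjusted p = 0.00988, or 0.0677 with only the 2 groups fitted), while Col1a1 was at −0.18 (0.276).

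The wider pathway was read from 5 lists of related genes, given as counts and medians for BMP2ADV590 against BMP2ADV, where 4.37% of all genes were called higher and 3.89% lower. Of 24 microfibril and elastin assembly genes, 15 were tested, 3 rose and 0 fell, with a median log2 fold change of 0.17. Mfap5, for a small microfibril glycoprotein, rose from 127 ± 4.69 to 167 ± 12.9 CPM (0.39, adjusted p = 0.00374). Vcan, for the large proteoglycan versican, which binds fibrillin, rose by 0.29 (adjusted p = 0.0189), and Bgn, for biglycan, by 0.28 (0.042). The Bgn call was lost in 8 of 12 refits that each left out 1 library (adjusted p up to 0.248), and the Vcan call in 4, without BMP2ADV replicate 2 or 3 or BMP2ADV590 replicate 1 or 3 (up to 0.0931).

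Of 10 genes of the lysyl oxidase family and its activators, 8 were tested, 1 rose and 0 fell, with a median of 0.13. Pcolce2, for an enhancer of the procollagen proteinase BMP1, rose from 203 ± 12.9 to 306 ± 8.63 CPM (0.59, adjusted p = 7.68e-05). It was also higher in BMP2ADV590 than in BMP2ADV20a (0.42, adjusted p = 0.0084) and in BMP2ADV148b (0.66, 3.3e-05). Loxl1, the family member most tied to elastic fibres, was at 0.12 (adjusted p = 0.432), so within the family a rise was called for Lox itself and not for Loxl1. The difference between the 2 genes was not tested. Over BMP2ADV148b, edgeR called 4 of 15 tested microfibril genes and 2 of 8 tested lysyl oxidase list genes higher in BMP2ADV590, beside 2.46% of all genes. They were Mfap5 (0.30, adjusted p = 0.0374), Vcan (0.34, 0.00869), Fn1 (0.29, 0.0255) for fibronectin, Adamts10 (0.54, 0.0374), Pcolce2 and Atp7a (0.53, 0.0115), the copper pump that supplies lysyl oxidase. Leaving out 1 library ended the Mfap5 call in 7 of 12 refits, the Adamts10 call in 4, the Fn1 call in 3, the Vcan call in 1 (without BMP2ADV148b replicate 1) and the Atp7a call in 1 (without BMP2ADV148b replicate 2), and limma-voom did not call Adamts10.

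Of the 7 latent TGF-beta binding protein and TGF-beta ligand genes, the growth factor cargo of microfibrils, all were tested and edgeR called 0, with a median of −0.04. DESeq2 and limma-voom called 0 as well, and 0 reached an unadjusted p of 0.05. Of 9 receptor genes for elastin and microfibrils, all 9 were tested, 2 rose and 0 fell, with a median of 0.28. Ctsa, the lysosomal protein of the elastin receptor complex, rose from 111 ± 10.0 to 146 ± 6.14 CPM (0.38, adjusted p = 0.00397). Itgb3, the beta chain of an integrin that binds fibrillin, rose by 0.66 (adjusted p = 0.0174), a call lost without BMP2ADV replicate 2 or 3 or BMP2ADV590 replicate 1 (up to 0.112).

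Of 15 elastin turnover genes, 13 were matched by symbol and 8 tested, and 3 rose and 1 fell, with a median of 0.21. Timp3, a matrix-bound inhibitor of metalloproteinases, rose from 3941 ± 121 to 5901 ± 252 CPM (0.58, adjusted p = 1.41e-05) and was also higher than in BMP2ADV20a (0.37, 0.0066) and BMP2ADV148b (0.38, 0.00175). For Timp3 and Pcolce2, the calls over BMP2ADV20a were lost without BMP2ADV20a replicate 1 or 2 (adjusted p up to 0.0671 and 0.0804). Mmp2, for gelatinase A, which can cleave elastin, rose by 0.51 (adjusted p = 0.000682), and Mmp14, for its membrane activator, by 0.27 (0.0246). The Mmp14 call was lost without BMP2ADV replicate 1 or 3 or BMP2ADV590 replicate 3 (up to 0.155).

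Mmp9, for gelatinase B, was the turnover gene that fell. Its counts were 29, 9 and 12 in BMP2ADV, 1, 1 and 0 in BMP2ADV20a, 33, 11 and 10 in BMP2ADV148b, and 2, 5 and 2 in BMP2ADV590. BMP2ADV20a and BMP2ADV590 lay below the other groups without overlap. Against BMP2ADV the log2 fold change was −2.42 in BMP2ADV590 (adjusted p = 0.041) and −4.52 in BMP2ADV20a (0.0224), from very few counts. The BMP2ADV590 call was lost with limma-voom, without the filter on low counts, with the replicate block (adjusted p up to 0.0654) and in 8 of 12 refits, and the BMP2ADV20a call without BMP2ADV replicate 1 or 3 or any BMP2ADV20a library. With BMP2ADV20a, edgeR made 1 further call in the 5 lists, Mfap5 (0.38, adjusted p = 0.0361), which was lost when any of the 6 libraries of those groups was left out. DESeq2 called 1 turnover gene higher there in addition. With BMP2ADV148b, edgeR, DESeq2 and limma-voom called 0 in all 5 lists, and edgeR called 0.249% of all genes. An unadjusted p under 0.05 was reached by 2 of 8 tested turnover genes, 2 of 9 receptor genes and 8.43% of all genes.

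**Figure D4:**
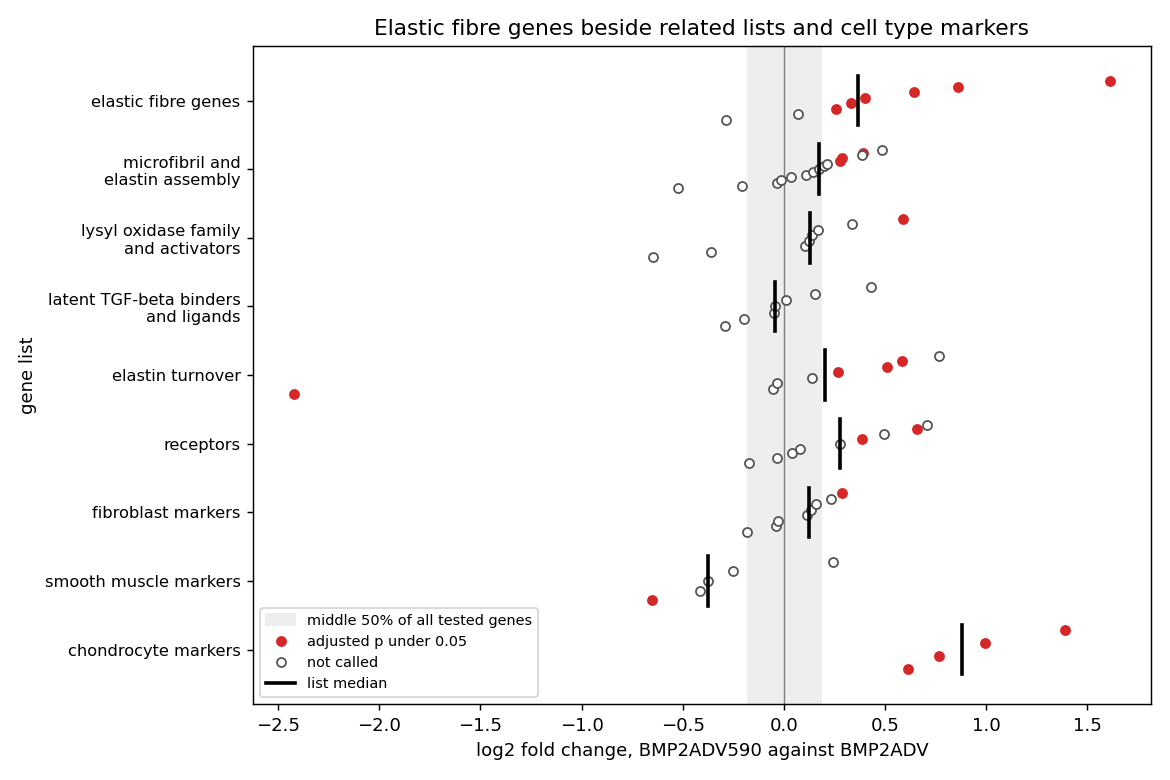
Log2 fold change in BMP2ADV590 against BMP2ADV for every tested gene of the elastic fibre list, the 5 related lists and 3 lists of cell type markers, 1 point per gene, filled where the adjusted p was under 0.05, with a black line at each list's median and a grey band over the middle 50% of all genes. The elastic fibre genes have a median of 0.37 and the latent TGF-beta binders and ligands one of −0.04, beside 0.00 for all genes. All lists were chosen with earlier results of these data known.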

How the data were processed

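The QuantSeq 3′ FWD kit, which samples transcripts near their poly(A) tail, was used for all libraries, per the labels' protocols. The authors deposited unnormalised counts per gene, in 1 file per library. FastQC 0.11.5, STAR 2.5.2a, HTSeq 0.6.0, DESeq2 and the build GRCm38 are named in the submitters' processing notes. No source used here gives the annotation release or the strand setting. Lines that name no gene (52.2% to 54.4% of records) were left out. Symbols came from GENCODE M21 (47224 of 47643 genes).

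Groups follow the labels. All 12 libraries entered 1 edgeR 4.0.16 model with a mean for each group (R 4.3.3; TMM, filterByExpr, quasi-likelihood F-test, tested on simulated data), with Benjamini-Hochberg adjustment over 13229 genes and calls at 0.05. The common biological coefficient of variation was 0.117. CPM are TMM-normalised, given as mean ± SD, and each fold change is the first group over the second. Nearest patterns used log2 CPM with a prior count of 2. DESeq2 1.42.0, limma-voom (limma 3.58.1), other scaling, other filters, fits of only 2 groups, a replicate block and leaving out each library were alternatives. Named beside the 10 genes were genes of the lists called in at least 1 contrast, and the 3 nearest patterns per gene that rose. The 10 genes and all lists were chosen with earlier results of these data known. Loxl1, Smtn and Col1a1 were named after their values were seen. The 3′ UTRs of Fbn2 and Lox were searched for the miRNA sites, but no sequence of these genes is printed here.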

Additional observations from a re-analysis of the deposited data

How the results depend on the processing

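For BMP2ADV590 against BMP2ADV, 6 elastic fibre genes were called and the alternatives gave 4 to 7, with 3 to 6 when 1 library was left out (3 without BMP2ADV replicate 2). The count of 7 came without a filter, where Fbln2 was added as lower. Emilin1 and Lox lost their calls with the replicate block (numbers shared by groups) and with only 2 groups fitted (adjusted p up to 0.0705 and 0.0926). Over BMP2ADV148b the count of 4 became 2 with the block and 2 with DESeq2, and 0 to 4 with 1 library left out. Over BMP2ADV20a the count of 3 became 1 with the block and 1 with DESeq2, and 0 to 3 with 1 left out. Without a filter, Fbn2 was called for BMP2ADV20a and for BMP2ADV148b against BMP2ADV, so that each count of 0 became 1. The test of all 4 groups gave 4, with 6 without a filter and 3 to 4 with 1 left out. Of 620 single-gene alternatives over 31 values, 566 kept direction and side of the threshold, 43 lost a call, 3 gained one and 8 changed sign. The sign changes were all of values never called, for 4 genes with 1 library left out. Eln in BMP2ADV20a ranged from −0.051 to 0.18 (−0.051 without BMP2ADV replicate 2 and −0.017 without BMP2ADV20a replicate 1). Fbln2 in BMP2ADV20a ranged from −0.083 to 0.27 (−0.083 without BMP2ADV replicate 1 and −0.037 without BMP2ADV20a replicate 1). Fbln5 in BMP2ADV148b ranged from −0.033 to 0.029 (0.0050 without BMP2ADV replicate 3 and 0.029 without BMP2ADV148b replicate 1). Fbn1 in BMP2ADV148b ranged from −0.037 to 0.064 (−0.037 without BMP2ADV replicate 2 and −0.0034 without BMP2ADV148b replicate 3). The cause of each change was not tested.

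Over all genes, 33 were called for BMP2ADV148b against BMP2ADV, 126 without a filter, 14 with the replicate block, 82 with DESeq2 and 3 to 60 with 1 library left out. For BMP2ADV20a against BMP2ADV the main count was 63, with 184 without a filter, 36 with the block, 145 with only 2 groups, 127 with DESeq2 and 18 to 108 with 1 left out. Between BMP2ADV20a and BMP2ADV148b it was 74, with 137 without a filter and 22 to 93 with 1 left out. For BMP2ADV590 it was 1093 against BMP2ADV (565 to 1115 with 1 left out), 586 against BMP2ADV148b (241 to 656) and 287 against BMP2ADV20a (64 to 489, with 519 without a filter and 172 with the block). Over 18 same-numbered pairs and 5000 genes, the correlation of deviations from the group mean ran from −0.415 to 0.275, and 2 pairs exceeded 0.1. Because each mean is of only 3 libraries, this cannot show whether same-numbered libraries shared a culture or run. Depth limits Fbln1 and Mfap4, with at most 12 counts in a library, and 3 libraries per group limit the precision of all.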
